A study of Rattus norvegicus with 16 samples.

Results

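The hairpins rno-mir-132, rno-mir-212, rno-mir-137, rno-mir-7a-1 and rno-mir-7a-2 (without the species prefix from here on) are 5 of the 392 miRNA hairpins with reads in a small RNA survey of rat tissues, and their 10 arms are 10 of 707. They were taken by name, every read listed under one of these hairpin identifiers was counted, and reads were summed for the 5′ and the 3′ arm in each library. Small RNAs of adult males of the inbred rat strains BN-Lx (brown Norway rats with the polydactyly-luxate syndrome) and SHR (spontaneously hypertensive rats) were sequenced on the SOLiD platform. Brain, heart, kidney, liver, spleen and testis, each taken whole, came from 1 rat of each strain, which gave 12 libraries, and 2 further livers of each strain gave 4 more. Outside liver the strains were the only replicates of a tissue, the labels give no treatment of the animals, and the parts of a whole organ were not separated. Levels are reads over the ocm, the outlier-corrected mean of a library, which is the mean read count over the 592 arms of known miRNA loci after leaving out the 3 arms with most reads, so a level of 1 is that of an average known arm.

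The member miRNAs are studied mostly in neurons. mir-132 and mir-212 are cut from a single transcript whose promoter is a known target of the activity-dependent factor CREB, and mir-132 is best known for its effect on dendrite growth and spine shape. mir-137 is enriched in the brain, where it acts on neuronal maturation and synaptic function. mir-7 is an ancient miRNA of neurons and of neuroendocrine and endocrine cells such as pancreatic islet cells, and in mammals its mature 5′ strand is made from more than 1 locus. A miRNA recognises its targets mainly through the seed, bases 2 to 8 from its 5′ end, so the base at which a read starts decides its seed.

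The mature sequences show which members share a seed and which can be told apart by their reads. They are RefSeq's entries on the rat assembly GRCr8, all on the plus strand, written 5′ to 3′ with the seed in capitals. RefSeq places mir-132-5p at chr10:60522055-60522076, mir-132-3p at chr10:60522091-60522112, mir-212-5p at chr10:60521771-60521794 and mir-212-3p at chr10:60521811-60521832. mir-137-5p lies at chr2:209165731-209165752 and mir-137-3p at chr2:209165767-209165789. mir-7a-5p has a copy in mir-7a-1 at chr17:6278710-6278732, mir-7a-1-3p lies at chr17:6278751-6278772 and mir-7a-2-3p at chr1:142215856-142215877.
mir-132-3p: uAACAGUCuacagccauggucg
mir-212-3p: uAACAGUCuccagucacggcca
mir-132-5p: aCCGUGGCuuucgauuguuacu
mir-212-5p: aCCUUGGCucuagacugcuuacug
mir-137-3p: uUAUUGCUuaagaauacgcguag
mir-137-5p: aCGGGUAUucuuggguggauaa
mir-7a-5p: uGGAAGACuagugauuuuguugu
mir-7a-1-3p: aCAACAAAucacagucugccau
mir-7a-2-3p: cAACAAGUcccagucugccaca
The 3′ arms of mir-132 and mir-212 share their seed. Counted from the 5′ end of mir-132-3p, they differ at 5 of 22 positions (A10C, C14U, U17C, U20C and G22A), so their reads can be told apart. The 5′ arms of this pair differ at 8 of the 22 positions compared, and G4U lies in the seed. The 5′ arm of mir-7a is identical at both loci, and a read of it therefore belongs to neither locus alone.

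The hairpins of the pair lie 182 bp apart on the plus strand of chromosome 10. On RGSC3.4, the build of the reads, mir-212 is at chr10:62480434-62480544 and mir-132 downstream of it at chr10:62480727-62480827. RefSeq on GRCr8 lists no other gene over either hairpin. mir-137 is at chr2:214802296-214802397 on RGSC3.4 and on GRCr8 falls within the gene listed as LOC120100931. mir-7a-1, at chr17:12204082-12204178, falls within Hnrnpk, the gene of an RNA-binding protein. mir-7a-2, at chr1:134607269-134607352, falls within the gene listed as LOC120099863.

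Depth differed between tissues and sets of libraries. The 10 six-tissue libraries other than testis held 403453 to 1064894 miRNA reads, the testis libraries held 26880 and 29131, and the further livers held 1167607 to 3229461. In testis 3 reads correspond to a level of 0.0945 in BN-Lx and 0.0847 in SHR, so low members could not be followed there. Tissue markers matched the labels: mir-122 ran from 405 to 716 in the 6 livers, the heart muscle list (mir-208, mir-1 and mir-133a) summed to 24.1 and 33.3 in heart and to at most 0.829 elsewhere, and the neuronal list (mir-124 and mir-9 hairpins) summed to 24.7 and 54.0 in brain. The exceptions were the kidney list, which summed to 79.9 and 59.02 in kidney and to 88.8 to 177 in liver, and the testis libraries, where the neuronal list stood higher than in other tissues outside brain and mir-122 was at 2.90 and 2.31, against 0.0973 to 0.364 in the other libraries outside liver.

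Brain held most of the reads of the 5 hairpins. They made up 1.49% of all miRNA reads in BN-Lx brain (15913 reads) and 1.27% in SHR brain (10890 reads), against 0.0306 to 0.270% in the other libraries. Of the 10 arms, 9 passed the filter on low counts, and edgeR's quasi-likelihood test called each of these higher in brain than in the mean of the other 5 tissues (Benjamini-Hochberg adjusted p under 0.05), while 38.9% of all 458 tested arms were called higher in brain. mir-212-3p, both arms of mir-137 and mir-7a-2-3p passed the filter through brain, with at most 8 reads in any other six-tissue library, so the count of arms called is no support beyond the values of each arm. DESeq2 did not call mir-137-5p (adjusted p = 0.213) or mir-7a-2-3p (adjusted p = 0.0940). In bulk tissue, fewer cells of a type and less RNA per cell cannot be told apart.

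**Figure D1:**
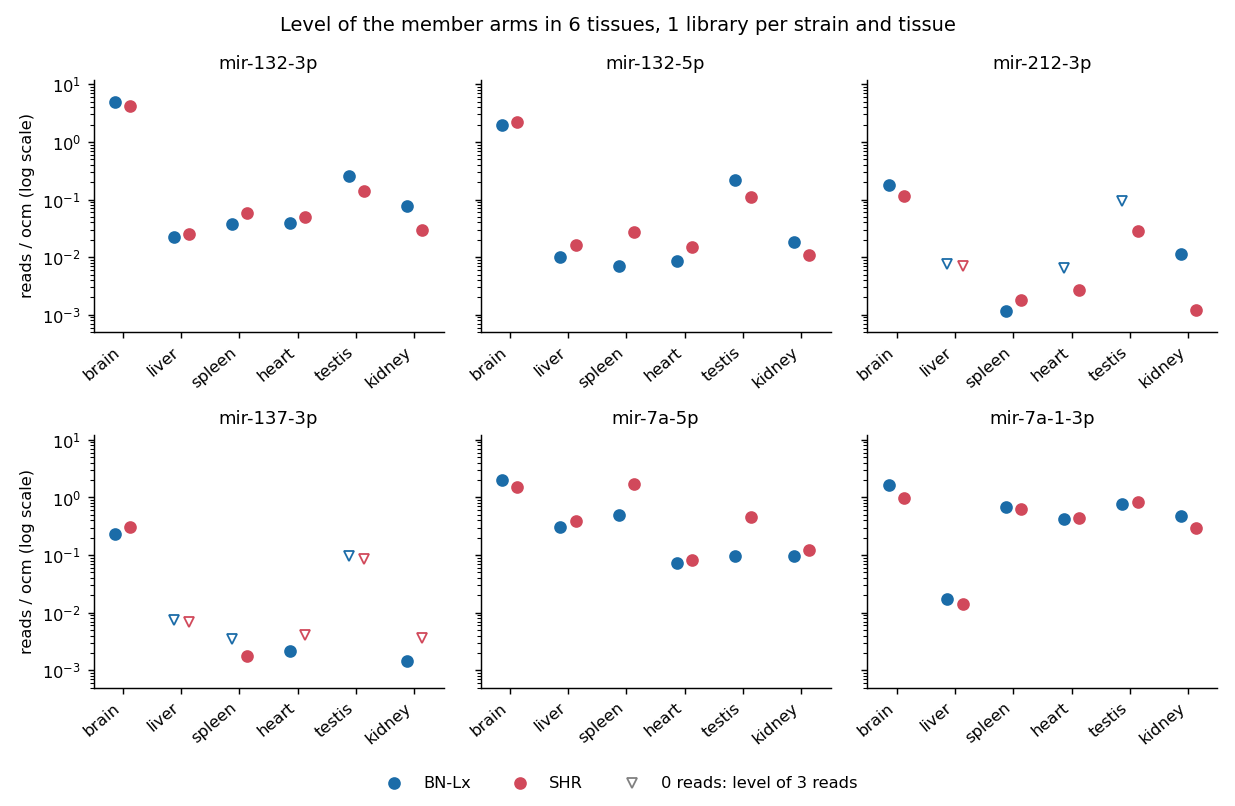
Levels of 6 member arms (reads divided by the ocm, log axis) in the 6 tissues of the BN-Lx and the SHR rat, 1 library per point, with open triangles for libraries at 0 reads, drawn at the level of 3 reads. mir-132-3p, mir-212-3p and mir-137-3p stood above every other tissue in both brains, while mir-7a-1-3p was lowest in liver. In spleen mir-7a-5p reached the level of brain in SHR (1.69 against 1.49) but not in BN-Lx (0.492 against 2.02).

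mir-132-3p, the arm used in most work on mir-132, had 6986 reads in the brain of BN-Lx and 4791 in that of SHR, levels of 4.85 and 4.19. In testis it stood at 0.252 and 0.141, which rest on 8 and 5 reads, and in kidney at 0.0771 and 0.0299. Spleen had 0.0371 and 0.0576, heart 0.0389 and 0.0490, and liver 0.0226 and 0.0257. The order was brain, then testis, then kidney, spleen and heart, whose ranges overlapped, and liver lowest. The summed neuronal markers, at 3.53 and 0.960 in testis against 0.0209 to 0.259 in the remaining tissues, and the liver marker mir-122 also stood higher there, and the part of such RNA in this order was not tested. Brain held 98.1% of its reads in the 12 libraries, and its level was 19.3 times that of the next tissue in BN-Lx and 29.7 times in SHR. The log2 fold change in brain was 5.95 (SE 0.35, adjusted p = 2.71e-08, edgeR).

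mir-132-5p, the opposite arm, had 2781 reads in brain of BN-Lx and 2546 in brain of SHR, levels of 1.93 and 2.23. Its highest level elsewhere was in testis, at 0.221 and 0.113 from 7 and 4 reads, and in the remaining 8 libraries it had 4 to 15 reads. Brain held 98.5% of its reads, and the log2 fold change in brain was 6.11 (SE 0.38, adjusted p = 3.48e-08, edgeR). Both arms of mir-132 were thus far above every other tissue in each strain, and no other tissue overlapped with brain.

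mir-212-3p carries the same seed as mir-132-3p at a much lower level. It had 262 reads in the brain of BN-Lx and 134 in that of SHR, levels of 0.182 and 0.117. In the other 10 libraries it had 8 reads in BN-Lx kidney, 2 in SHR heart, 1 each in both spleens, SHR testis and SHR kidney, and 0 in the remaining 4. The pooled level in brain was 55.3 times that of the other tissues (95% interval 32.5 to 102), and the log2 fold change was 5.69 (SE 0.74, adjusted p = 4.08e-05, edgeR). This exact interval and all others below cover counting error only, since reads made by PCR without molecular identifiers are not independent molecules. The next tissue was kidney in BN-Lx, with brain 15.9 times higher, and testis in SHR, where a single read set brain only 4.15 times higher.

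mir-212-5p was the one arm below the filter. It had 165 reads in the brain of BN-Lx and 7 in that of SHR, levels of 0.115 and 0.00613, and at most 3 reads in any other library. The level in the brain of the SHR rat was 1.70 times that of its kidney, where 3 reads were found, so only BN-Lx brain stood clear of the other libraries.

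The transcript of the pair gave many more reads of mir-132 than of mir-212. Over both arms, BN-Lx brain held 9767 reads of mir-132 and 427 of mir-212, a ratio of 22.9 (95% interval 20.8 to 25.3). SHR brain held 7337 and 141, a ratio of 52.0 (44.0 to 61.9). The intervals of the brains did not overlap, but with 1 library of each strain the difference could not be tested. With the 3′ arms alone the ratios were 26.7 and 35.8, and with the 5′ arms alone 16.9 and 364, so the gap between strains was narrower without the 5′ arms. These ratios are of reads, and the capture efficiency of each sequence was not tested.

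Outside the brain the pair was too scarce for a firm ratio. The other 5 tissues of both rats together held 310 reads of mir-132 and 22 of mir-212, a ratio of 14.1 (9.14 to 22.8), or 16.4 with the 3′ arms alone. In kidney the ratio was 7.44 in BN-Lx (3.70 to 16.98) and 8.50 in SHR (3.03 to 33.0), with 9 and 4 reads of mir-212. The interval of the pooled tissues overlapped with that of BN-Lx brain and lay below that of SHR brain.

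**Figure D2:**
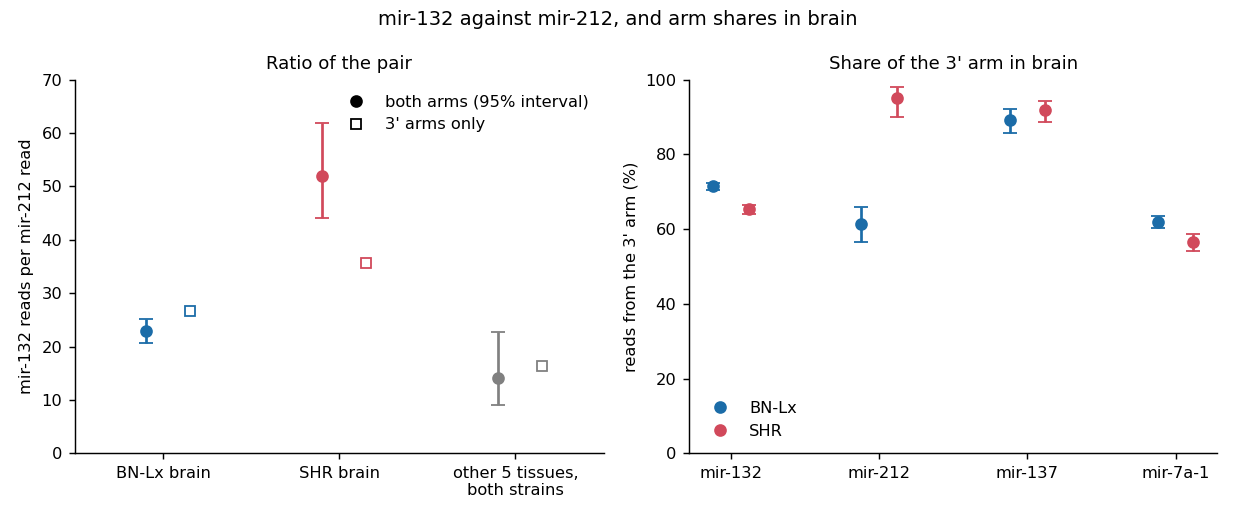
Left, mir-132 reads per mir-212 read (linear axis) in each brain and in the other 5 tissues pooled, with circles for both arms and their 95% interval and squares for the 3′ arms alone. Right, the 3′ arm's share (%) of the reads of mir-132, mir-212, mir-137 and mir-7a-1 in brain, with 95% intervals. The ratio was 22.9 in BN-Lx and 52.0 in SHR brain, and the widest gap between strains in arm share was that of mir-212, 61.4% against 95.04%.

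The arms of a hairpin were not kept in equal amounts. The 3′ arm of mir-132 took 71.5% of its reads in BN-Lx brain (70.6 to 72.4%) and 65.3% in SHR brain (64.2 to 66.4%). Over the 15 libraries with at least 10 reads this share ran from 53.3 to 100%. For mir-212 the share of the 3′ arm was 61.4% in BN-Lx brain (56.6 to 66.0%) and 95.04% in SHR brain (90.0 to 98.0%). mir-137 had 89.3% (85.8 to 92.3%) and 91.8% (88.6 to 94.4%) of its brain reads on the 3′ arm, and these intervals overlapped. The shares of mir-132 and mir-212 thus lay apart between the brains beyond counting error, with no replicate of either.

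mir-137 was almost undetected outside brain. mir-137-3p had 335 reads in the brain of BN-Lx and 349 in that of SHR, levels of 0.233 and 0.305. The other 10 libraries held 3 reads in all, 1 each in BN-Lx heart, BN-Lx kidney and SHR spleen. Its pooled level in brain was 445 times that of the other tissues (95% interval 152 to 2165), with a log2 fold change of 8.56 (SE 0.79, adjusted p = 4.50e-06, edgeR). The more deeply sequenced further livers held 0 and 2 reads where they came from BN-Lx, and 8 and 1 from SHR.

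mir-137-5p had 40 and 31 reads in the brains of BN-Lx and SHR, levels of 0.0278 and 0.0271, and 0 in all other libraries. With 0 reads over the 10 other six-tissue libraries pooled, the exact 95% interval of its ratio began at 36.6, and edgeR gave an adjusted p of 0.00344. The brains of both strains were close to each other. Testis could not be set below them, since 3 reads there correspond to 0.0945 and 0.0847.

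The mir-137-3p reads were divided between the start that RefSeq gives, the most frequent one in both brains, and later starts. Over the 12 six-tissue libraries, 325 of its 687 reads (47.3%) started at the RefSeq base, 71 (10.3%) started 1 base later and 283 (41.2%) started 2 bases later. The 3 starts had 161, 35 and 134 of the 335 reads in the BN-Lx brain, and 163, 36 and 147 of the 349 reads in the SHR brain. The earliest start thus took 48.1% (42.6 to 53.6%) and 46.7% (41.4 to 52.1%), with overlapping intervals. The most frequent read of 21 bases is the form with the later start, and its seed is shifted by 2 bases against the RefSeq form shown above.
mir-137-3p, most frequent read: aUUGCUUAagaauacgcguag
Of its reads, 51.2% were 21 bases long and 33.0% were 23 bases long.

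mir-7a-1-3p began elsewhere than RefSeq places it in nearly all reads. Of 5585 reads, 1 started at the RefSeq base, 82.4% started 1 base later, 15.5% started 2 bases later and 2.01% started 3 bases later. In the 14 of all 16 libraries with at least 10 reads, the share starting 1 base later ran from 70.4 to 90.9%, so this start led in each of them. The six-tissue livers, with 7 and 6 reads, were below this cut. There the start 2 bases later led in BN-Lx (71.4%) and the start 1 base later in SHR (83.3%). The most frequent read of mir-7a-1-3p has another seed than the RefSeq form, and differs from mir-7a-2-3p at 3 of 22 positions counted from its 5′ end (A7G, A10C and U21C).
mir-7a-1-3p, most frequent read: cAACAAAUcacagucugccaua
The first of these differences lies in the seed.

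The other member arms mostly kept the RefSeq start. It was the start of 92.2% of mir-132-3p reads, 93.7% of mir-212-3p reads, 99.0% of mir-7a-5p reads and 91.7% of mir-7a-2-3p reads. mir-132-5p kept it in 87.6% and started 1 base earlier in 12.3%, while in the further livers 20 of its 32 reads (62.5%, 95% interval 43.7 to 78.9%) started 1 base earlier. The earlier start led in SHR liver 3 (70.6% of 17 reads) and BN-Lx liver 2 (2 reads), and the RefSeq start led in SHR liver 2 (53.8% of 13 reads). The variation of mir-132-3p was at its 3′ end instead, where 79.0% of the reads stopped 2 bases before the RefSeq end, and 73.2% were 20 bases long against 7.35% at 22 bases. In the further livers 22 bases was the most frequent length, with 40 of 71 reads (56.3%, 95% interval 44.0 to 68.1%), except in the library SHR liver 3, where 55.2% of 29 reads were 20 bases long.
mir-132-3p, most frequent read: uAACAGUCuacagccauggu
This shorter form has the same seed as the RefSeq form.

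**Figure D3:**
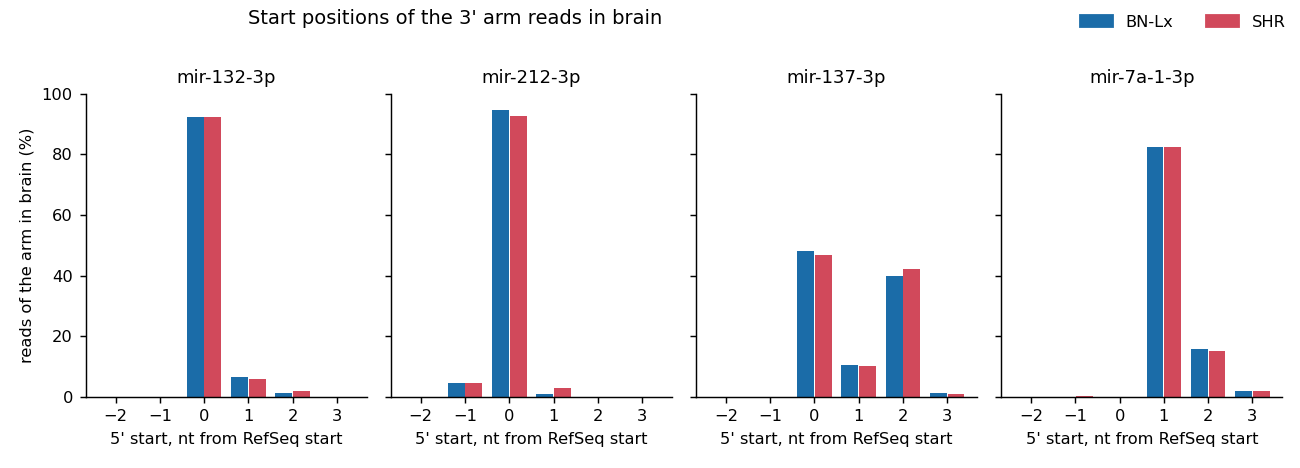
Share of reads (%) by the distance in bases of their 5′ start from the RefSeq start, in brain of BN-Lx and SHR, for mir-132-3p, mir-212-3p, mir-137-3p and mir-7a-1-3p. mir-132-3p and mir-212-3p peaked at 0, mir-137-3p was divided between 0 and 2, and mir-7a-1-3p peaked at 1 in both strains.

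mir-7a-5p, the strand known for its role in neurons and islet cells, was spread more widely than the other members. Summed over both loci it had 2910 reads in the brain of BN-Lx and 1705 in that of SHR, levels of 2.02 and 1.49. In spleen it stood at 0.492 in BN-Lx and 1.69 in SHR, from 424 and 940 reads. The range of spleen reached into that of brain, since the SHR spleen was above the SHR brain. Liver followed at 0.309 and 0.386, then testis at 0.0945 and 0.452 from 3 and 16 reads, kidney at 0.0956 and 0.125 and heart at 0.0734 and 0.0831. Liver and testis overlapped, testis and kidney overlapped as well, and heart was lowest in each strain.

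With the six-tissue livers, the 5′ arm was called in 4 of the 6 tissues. The fit gave each locus the same values, because an identical read was divided evenly between the loci. Brain was higher by 2.51 on the log2 scale (SE 0.38, adjusted p = 0.000110, edgeR) and spleen by 2.15 (SE 0.39, adjusted p = 0.00138). In all, 3 member arms were called higher in spleen, the copies of the 5′ arm and mir-7a-1-3p, beside 18.3% of all arms. Without the SHR spleen 0 were called, and without the BN-Lx spleen the call of mir-7a-1-3p was lost. In heart the 5′ arm fell by 2.03 (adjusted p = 0.0162) and in kidney it fell by 1.68 (adjusted p = 0.0330, edgeR), tissues in which 6.77% and 6.99% of all arms were called lower. The call in heart was lost without either heart library. The call in kidney was lost without either kidney, liver or heart library, and also without BN-Lx brain, SHR spleen or SHR testis. Brain held 70.4% of its reads, and its pooled level there was 4.65 times that of the other tissues (4.41 to 4.91).

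Markers of pancreas and endocrine cells were present in the spleens. The BN-Lx and SHR spleens held 43 and 150 reads of mir-375, 4 and 10 of mir-216a, 12 and 53 of mir-216b and 102 and 138 of mir-217. All 4 listed hairpins were thus detected in both spleens, and their summed level was 0.187 in BN-Lx and 0.632 in SHR. The sum was 0.0306 and 0.0140 in brain, 0 in both hearts, 0.0402 and 0.0514 in the six-tissue livers and 0.0457 and 0.0299 in kidney. In testis it was 0.0630 and 0.508, from 2 and 18 reads of mir-375 with the other hairpins at 0. Both mir-7a-5p and this sum were higher in the SHR than in the BN-Lx spleen, and the part of such cells in the spleen result was not tested.

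mir-7a-1-3p, the opposite strand, which tells the loci apart, had a flatter profile in every tissue but liver. It had 2368 reads in the brain of BN-Lx and 1107 in that of SHR, levels of 1.65 and 0.969. Testis had 0.756 and 0.819 from 24 and 29 reads, spleen 0.679 and 0.639, heart 0.425 and 0.433 and kidney 0.485 and 0.297. Brain was above testis and spleen in each strain, by only 1.18 times over testis in SHR, and heart and kidney overlapped. The log2 fold change was 1.84 in brain (SE 0.34, adjusted p = 0.000443, edgeR) and 1.46 in spleen (SE 0.34, adjusted p = 0.00771, edgeR).

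The 3′ reads came almost entirely from mir-7a-1. mir-7a-2-3p had 66 reads in the brain of BN-Lx and 220 in that of SHR, levels of 0.0459 and 0.193. It had 2 reads in BN-Lx spleen and 0 in all the other libraries, the further livers included, although 3 reads in the BN-Lx testis would already exceed its level in BN-Lx brain. Its pooled level in brain was 279 times that of the other tissues (95% interval 76.6 to 2318), and edgeR gave an adjusted p of 0.000217. mir-7a-1 gave 97.3% of the 3′ reads of the loci in BN-Lx brain (96.6 to 97.9%) and 83.4% in SHR brain (81.3 to 85.4%), against 99.7 to 100% in the other tissues. The intervals of the brains lay apart, with 1 library each. A few 5′ reads of the further livers extended to bases 25 and 26, where the loci differ, and mir-7a-1 took 17 of 22, 17 of 20, 29 of 29 and 53 of 57 of these.

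The 3′ arm's share of mir-7a-1 depended on the tissue, with the 5′ reads counted as the even part assigned to this locus. In brain it was 61.9% for BN-Lx and 56.5% for SHR, 73.5% and 43.0% in spleen, and 92.1% and 91.2% in heart. In kidney it was 91.0% and 82.7%. In the six-tissue livers it was 10.2% (4.24 to 20.1%) and 6.78% (2.54 to 14.3%), below every other library.

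The six-tissue livers held far less mir-7a-1-3p than any other tissue, and the further livers did not share this. The six-tissue liver of BN-Lx had 7 reads and that of SHR had 6, levels of 0.0176 and 0.0140. The further BN-Lx livers had 279 and 323 reads and the further SHR livers had 830 and 914, levels between 0.294 and 0.401. The sets did not overlap, and the mean of the further livers, 0.364, was 23.0 times the mean of 0.0158 in the others. With strain in the fit, the log2 difference was 4.74 (SE 0.35, adjusted p = 0.00134, edgeR), where 18.5% of 270 arms were called higher in the further livers. It was the 1 arm called, of the 4 member arms tested in liver.

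mir-7a-5p did not set the liver libraries apart in the same way. It had 123 and 165 reads in the six-tissue livers and 235, 611, 846 and 1376 in the further livers, levels of 0.309 and 0.386 against 0.248 to 0.733. The ranges overlapped, and neither copy was called (log2 0.76 and 0.67, adjusted p = 0.259 and 0.335, edgeR). mir-132-3p had log2 -0.88 (adjusted p = 0.174). The 3′ arm's share of mir-7a-1 in the further livers was 69.3 and 50.8% for BN-Lx, then 65.5 and 56.2% for SHR, within the range of the spleens. The further livers came from other rats, were sequenced more deeply and listed reads shorter than 17 bases (at most 0.278%), and rat, set and preparation cannot be told apart.

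**Figure D4:**
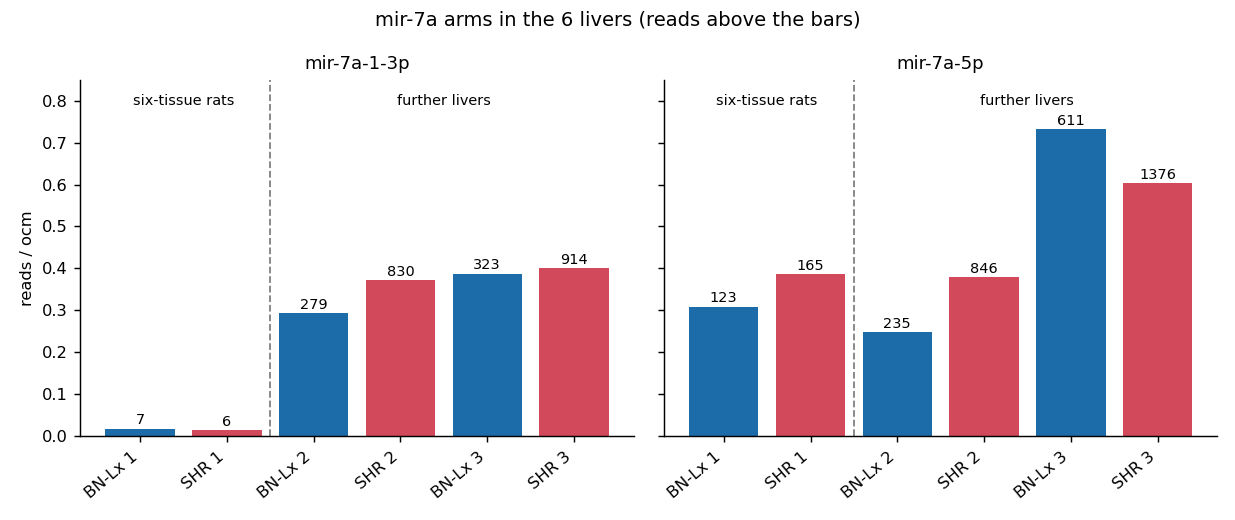
Levels (reads divided by the ocm) of mir-7a-1-3p and mir-7a-5p in the 6 liver libraries, with the reads of each printed above its bar and a dashed line between the six-tissue rats and the further livers. mir-7a-1-3p was at 0.0176 and 0.0140 in the six-tissue livers and at 0.294 to 0.401 in the further livers, while the ranges of mir-7a-5p overlapped.

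The low value of mir-7a-1-3p in liver depended on which livers were used, while both arms of mir-132 were called lower with either set. With the six-tissue livers, 3 member arms were called lower in liver, beside 12.2% of all arms. mir-7a-1-3p fell by 5.07 on the log2 scale (SE 0.57, adjusted p = 3.12e-05, edgeR), and mir-132-3p and mir-132-5p fell by 2.40 and 1.96 (adjusted p = 0.00654 and 0.0312). Leaving out either six-tissue liver left mir-7a-1-3p as the 1 called arm, and mir-132-5p was also lost without either brain, BN-Lx testis, SHR spleen or SHR heart. With the further livers in their place, an alternative chosen after the data were seen, mir-7a-1-3p in liver had a log2 fold change of 0.05 (adjusted p = 1). Its difference in brain then became 0.74 (adjusted p = 0.0984) and in spleen 0.51 (adjusted p = 0.382, edgeR). With these livers mir-132-3p, mir-132-5p and mir-212-3p were called lower in liver, by 2.91 to 3.04 (adjusted p at most 0.0282, edgeR). The copies of mir-7a-5p, not called with the six-tissue livers, were then called higher in liver, by 1.34 to 1.44 (adjusted p at most 0.00740, edgeR).

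Outside brain, each tissue was set against a mean that includes brain, so low values there partly restate the level of brain. mir-132-5p was called lower in spleen (log2 -1.64, adjusted p = 0.0425), where 10.9% of arms were called lower, and also in heart (log2 -1.91, adjusted p = 0.0363) and kidney (log2 -1.77, adjusted p = 0.0401, edgeR). The call in spleen was lost when any library other than SHR testis or SHR kidney was left out, and its log2 difference was -0.91 without BN-Lx spleen and -2.51 without SHR spleen. The call in heart was lost without either brain, liver or heart library, BN-Lx testis or SHR spleen. The call in kidney was lost without either brain, liver, heart or kidney library, BN-Lx testis or SHR spleen. In testis 25.1% of all arms were called in either direction, and edgeR called 0 member arms. The 2 at an unadjusted p under 0.05 were the copies of mir-7a-5p, lower in testis (log2 -1.28). DESeq2 called 2 other arms, mir-132-5p and mir-7a-1-3p, both higher in testis.

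By the study's own rule, a level at least 5 times that of every other tissue in each strain, 5 member arms were specific to brain: mir-132-5p, mir-132-3p, mir-137-5p, mir-137-3p and mir-7a-2-3p. Of 694 arms with reads, 18.9% met this rule. It takes 0 reads as a level of 0, and for mir-137-5p in both strains and mir-7a-2-3p in BN-Lx the brain level was below that of 3 reads in testis. The brain levels of mir-137-3p (0.233 in BN-Lx and 0.305 in SHR) and of mir-7a-2-3p in SHR (0.193) were above it but under 5 times it. For mir-137-5p, mir-137-3p and mir-7a-2-3p the rule was thus not shown to hold against testis. Each of them met it with the testis libraries left out. mir-212-3p missed it through a single read in SHR testis and met it with the testis libraries left out. mir-7a-1-3p was liver avoidant, a class of 3 arms (0.432%), and was not when the further livers were used.

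No tested member arm was called between the strains. Over the 6 tissues, edgeR called 0 of the 9 tested member arms and 0% of 458 arms, with 0 members and 7 arms in all at an unadjusted p under 0.05. Each strain was 1 rat in this comparison, the difference is an average over tissues, and a difference within brain was not tested. mir-212-5p, with 165 and 7 reads in the BN-Lx and SHR brains, was below the filter and not tested. The log2 differences of SHR over BN-Lx ran from -0.48 for mir-212-3p (SE 0.81) to 1.26 for mir-7a-2-3p (SE 1.21), all with an adjusted p of 0.998.

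In liver, with 3 rats of each strain, edgeR called 0 of the 4 tested member arms and 0% of 270 arms, with 0 members and 8 arms at an unadjusted p under 0.05. mir-7a-5p was at 0.430 ± 0.264 in BN-Lx and 0.456 ± 0.128 in SHR (SD, n = 3). mir-132-3p was at 0.0147 ± 0.00697 and 0.0162 ± 0.00829 (SD, n = 3), with a log2 difference of 0.21 (SE 0.58). mir-7a-1-3p was at 0.233 ± 0.192 and 0.262 ± 0.216 (SD, n = 3), with a log2 difference of 0.32 (SE 1.29), and its spread within a strain was that between the sets of livers. Exact two-sided permutation tests of the levels gave p between 0.3 and 1, where 0.1 is the smallest that 3 against 3 allows.

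The arms with a profile most like that of a member were found by the root mean square difference over the 12 six-tissue libraries of log2(level + 0.01), after subtracting each arm's mean, among 443 arms with at least 50 reads. Nearest to mir-132-3p were mir-487b-3p (0.433) and the 5′ arms of mir-124-1 and mir-124-3 (both 0.499), where the median arm was at 2.43. Nearest to mir-212-3p were mmu-mir-666-3p (0.344), mir-129-1-3p (0.387) and mir-325-3p (0.478), against a median of 1.58. Nearest to mir-137-3p were mir-539-5p (0.216), mir-344-1-3p (0.265) and mir-380-3p (0.274), against a median of 1.88. The neighbours of mir-212-3p and mir-137-3p had at most 5 reads in any library outside brain, where most levels lie under the added 0.01, so their small differences rest largely on brain. The mir-124 neighbours of mir-132-3p had at most 3 reads in any such library. Their totals of 2018 and 2016 are nearly the same evenly divided reads. Nearest to mir-7a-5p were mir-539-3p (1.04), mir-431-5p (1.04) and mir-154-5p (1.10), with a median of 1.79. Nearest to mir-7a-1-3p were mir-181c-5p (1.08), mir-181c-3p (1.12) and mir-324-5p (1.12), with a median of 2.03.

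Other miRNAs linked to neuronal activity or the synapse were mostly higher in brain as well. Of 11 such hairpins (mir-134, mir-138, mir-124, mir-485, mir-329, mir-188 and mir-125b loci), 22 arms had reads, 19 were tested, 18 were higher in brain and 0 lower, where 38.9% of all arms were higher. The copies of mir-124 and mir-125b count several times among these, since reads shared by several hairpins were divided evenly between them. Of the tested arms, mir-134-5p, mir-138-2-3p, mir-485-5p and mir-329-5p were at most at 0.00719 outside brain and passed the filter through brain. The median log2 fold change of the 19 tested arms was 5.72, against 0.46 over all 458 arms. The count called and this median, which take in those arms and copies, are therefore no support beyond the values of each arm. The arm not called was mir-188-3p (log2 0.51, adjusted p = 0.66, edgeR). mir-138-1-5p, an inhibitor of spine growth, had levels of 12.8 and 11.8 in the BN-Lx and SHR brains and a log2 fold change of 5.22 (adjusted p = 1.73e-08, edgeR). mir-124-2-3p, the classic neuronal miRNA, had 5.51 and 16.1 and a log2 fold change of 7.97, and these levels are the part assigned to 1 of 3 mir-124 hairpins. mir-125b-1-5p, found in many tissues, had 17.4 and 23.8 as the part of 1 hairpin and a log2 fold change of 0.84 (adjusted p = 0.00792, edgeR).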

How the data were processed

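Small RNA libraries (15 to 40 nt gel fraction, mirVana and SREK kits) were sequenced on SOLiD. The authors assigned reads to hairpins with miRIntess (RGSC3.4, miRBase v12), remapped them with SHRiMP and kept perfect matches. They deposited an estimated count per start and end position on a hairpin, in which a read with several hits was divided evenly over them. README and piRNA tables were not used.

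Arms are not named in these tables, so reads were assigned to the 5′ or 3′ arm by grouping their midpoints along the hairpin. Rows that listed the same position more than once (3166 of 48838 positions) were summed. Estimated counts were rounded to whole reads for edgeR 4.0.16 (quasi-likelihood test, TMM, filterByExpr, R 4.3.3) with Benjamini-Hochberg adjustment over all tested arms and a threshold of 0.05. Each tissue was compared with the mean of the other 5 in the 12 six-tissue libraries, with tissue and strain as terms. Strains were compared in the same fit and in the 6 livers. DESeq2 1.42.0 was an alternative. Other steps used Python 3.11.15, numpy 2.4.6, pandas 2.3.3, scipy 1.17.1 and matplotlib 3.10.9. Intervals are exact 95% (Clopper-Pearson), and the level of 3 reads was taken as the floor of a library with none. The edgeR steps were tested on simulated data.

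The members, the list of activity-linked miRNAs and the marker lists were chosen with earlier results of these data known. Every member arm is named, with the 3 arms of nearest profile for 5 of them and the activity-linked arms with most reads. The six-tissue libraries of a strain came from the same rat, and the strain term took out the mean difference between the 2 rats. The p-values over tissues thus rest on the differences within tissues that remained between these rats, and not on a spread among rats of a strain. The 6 livers came from 3 rats of each strain. Liver libraries with the same replicate number deviated together from their strain means (correlations of 0.66, 0.576 and 0.302 over 270 arms), so the liver fit was repeated with that number as a block. The numbers come from the labels, which do not say what they mark beyond replicate. Other normalisations, no filter, both mir-7a-5p copies summed and each library left out in turn were tried, with settings of the fold rule, arms and read lengths. Use of the further livers in place of the six-tissue livers and the omission of testis were chosen after seeing the data.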

Additional observations from a re-analysis of the deposited data

How the results depend on the processing

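In brain, 7 to 10 member arms were called higher under 20 alternatives, 7 with DESeq2, 8 with the further livers and 10 without the filter, which added mir-212-5p. mir-212-5p also passed the filter when any library other than BN-Lx brain was left out. Counts of called arms moved more in the other tissues. In liver, 2 arms, the copies of mir-7a-5p, were higher with the further livers in place of the six-tissue livers, against 0. mir-7a-1-3p reversed, to a log2 difference of 0.0464. Arms lower in liver were 1 to 3 as single libraries were left out, arms higher in spleen 0 to 3, arms lower in spleen 0 to 2, arms lower in heart 0 to 3 and arms lower in kidney 0 to 3. In spleen 2 arms were lower with DESeq2, RLE factors, ocm scaling or total reads, and 0 with no filter, the further livers or no testis. mir-7a-1-3p was called higher in heart (1 arm against 0) with DESeq2 or no testis. mir-132-5p and mir-7a-1-3p were called higher in testis (2 against 0) with DESeq2, ocm scaling or total reads. Arms avoiding a tissue were 2 in SHR alone and 0 with the further livers, against 1. The ratio of mir-132 to mir-212 was 26.7 in BN-Lx and 35.8 in SHR brain with 3′ arms only. With reads of 20 to 24 nt, the 3′ share of mir-212 in BN-Lx brain was 56.4%, and 98.2 and 98.6% of mir-132-3p reads in BN-Lx and SHR brain began at the RefSeq start. The cause of these changes was not tested.

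In the liver strain comparison the replicate block gave 0 member calls, 22 of 270 arms at an unadjusted p under 0.05 and a smallest adjusted p of 0.491 (edgeR), and changed no other call. The study's window test, run one-sided for higher levels in BN-Lx, called 0 of 6 member arms. All 6 fell on the SHR side, so the test could not call them, and the other side was not run.

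Over all arms, calls in liver went from 119 to 242 with the further livers and to 39 and 55 without the BN-Lx or SHR liver. Calls in spleen fell from 134 to 46 and 66, in heart from 89 to 46 and 48, and in testis from 115 to 65 and 68, without the BN-Lx or SHR library of that tissue, and DESeq2 called 136 in heart. The share of higher calls in brain was 62.7% and 75.1% with total reads, as the median log2 difference of all arms went from 0.46 to 1.18. It went from 52.9 to 25.2% in liver, 65.2 to 41.3% in heart and 44.4 to 83.5% in testis with total reads, and from 62.7 to 49.3% in spleen and 68.9 to 44.4% in kidney with DESeq2. With 1 rat of each strain per tissue and 26880 and 29131 reads in testis, low arms could not be ranked outside brain.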
